A study of Caenorhabditis elegans with 2 samples.

Results

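The 8 cct genes of Caenorhabditis elegans, cct-1 to cct-8, encode the subunits of the cytosolic chaperonin CCT, and they were examined for regions bound by GFP-tagged ZK185.1, a protein that RefSeq describes as holding a C2H2-type domain, at their starts. They are 8 of 19973 nuclear protein-coding genes in the annotation, all 8 were found by symbol, and the set was chosen by the signal, rank and position of its regions in earlier results of the same data, so that these values are given as a description without a test. For each gene every region was taken whose summit lay in the start window, which runs from 1000 bp upstream to 200 bp downstream of the annotated gene start.

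CCT is a barrel of stacked rings, each ring holding a copy of every subunit, and it folds newly made proteins in an ATP-driven cycle. Actin and tubulin are its best known clients, and the prefoldin complex hands unfolded chains of both to it. Each subunit is encoded by a gene of its own, and the subunits are related to one another in sequence.

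The samples were whole young adult hermaphrodites of strain OP474, genotype unc-119(tm4063) III; wgIs474, harvested 56.25 h after synchronization of L1 larvae starved after bleaching. The wgIs474 insertion gives a ZK185.1 fusion with a C-terminal GFP-FLAG tag, and chromatin was precipitated with an antibody to GFP. There were 2 biological replicates of 1 group and no second condition. The authors' relaxed lists hold 30000 regions apiece, called on either replicate or on the reads of both together (the pooled list). A thresholded list, made from both replicates, holds 2053 peaks, whose weakest signal was 57.0 in the authors' unit, which has no stated scale. Relaxed regions had a median signal of 15.4 in the pooled list, 5.58 in replicate 1 and 7.96 in replicate 2. Signals were therefore compared only within a list, while ranks, with 1 as the strongest region, were read across lists. Read depth is unknown from these files.

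Sequences around the strongest pooled summit are shown first for the 7 genes that had a region, because the letters they share are described with the signals. Each run is 101 bases of WBcel235 (RefSeq), centred on the summit and written 5′ to 3′ on the strand of the cct gene. No annotated exon overlaps any of them. Capitals mark GGTCTC or its reverse complement GAGACC, the word GACGCG, the longer runs GGTCTCGNCACGA and TGACGCGCAA that contain them, and TTCNNGAA, the core of the heat shock element. The windows are chr II 8185149 to 8185249 for cct-1, chr II 8927434 to 8927534 for cct-2 and chr II 8283394 to 8283494 for cct-4, on the plus strand. Those on the minus strand are chr III 4508518 to 4508618 for cct-5, chr III 5855877 to 5855977 for cct-6 and chr IV 1094311 to 1094411 for cct-8. That of cct-7 is chr V 1871857 to 1871957 on the plus strand.
cct-1: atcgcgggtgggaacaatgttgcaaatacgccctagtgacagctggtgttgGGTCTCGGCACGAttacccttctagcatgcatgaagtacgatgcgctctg
cct-2: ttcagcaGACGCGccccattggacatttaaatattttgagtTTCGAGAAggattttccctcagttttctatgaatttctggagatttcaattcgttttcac
cct-4: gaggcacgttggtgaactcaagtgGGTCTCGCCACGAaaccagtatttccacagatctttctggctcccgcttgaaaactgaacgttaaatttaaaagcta
cct-5: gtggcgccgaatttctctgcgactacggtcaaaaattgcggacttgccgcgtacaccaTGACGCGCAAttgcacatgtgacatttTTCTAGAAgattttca
cct-6: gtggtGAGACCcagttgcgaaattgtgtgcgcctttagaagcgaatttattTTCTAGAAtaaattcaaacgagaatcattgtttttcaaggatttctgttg
cct-7: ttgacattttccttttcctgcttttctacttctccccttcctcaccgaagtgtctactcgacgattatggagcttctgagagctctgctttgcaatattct
cct-8: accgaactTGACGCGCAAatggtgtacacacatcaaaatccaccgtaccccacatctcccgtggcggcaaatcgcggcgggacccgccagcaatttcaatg

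The 8 subunit genes did not carry regions of like strength. Thresholded summits were present at 4 of them, cct-1, cct-2, cct-7 and cct-8 (50%), against 6.77% of all nuclear protein-coding genes (1352 of 19973). Of the others, cct-4, cct-5 and cct-6 had weaker relaxed regions and cct-3 had no region in any list. A relaxed region of any strength was present at 7 of 8 cct genes in the pooled list and in each replicate, against 36.8% of coding genes in the pooled list, 36.8% in replicate 1 and 37.3% in replicate 2. Among the 2053 strongest regions of replicate 1 alone there was a summit at 4 of 8, cct-1, cct-2, cct-7 and cct-8, against 5.95% of coding genes, and among those of replicate 2 at 3 of 8, cct-1, cct-7 and cct-8, against 7% of coding genes. The rule used these values, and nothing was read from the difference to all coding genes.

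**Figure D1:**
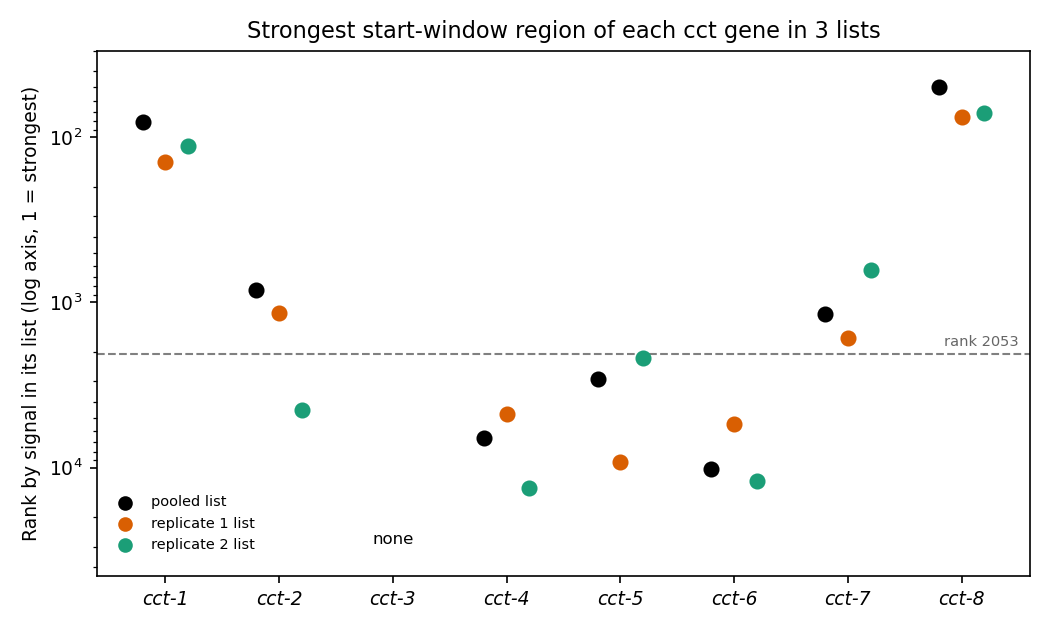
Rank by signal (log axis, 1 at the top) of the strongest start-window region of each cct gene in the pooled list (black), replicate 1 (orange) and replicate 2 (green), with a dashed line at rank 2053. The points of cct-1 and cct-8 lie between ranks 50 and 142 in all 3 lists, cct-7 ranks better than the line in all 3 and cct-2 in the pooled list and replicate 1, and cct-3 has no point.

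The strongest region belonged to cct-8 (WBGene00021934; chromosome IV, 1087108 to 1093920, minus strand), which encodes the theta subunit. Raised expression of this gene is known to increase assembly of the complex and to lengthen life in C. elegans. The peak at 1094239 to 1094475 had a pooled signal of 443 (rank 50), with 160.5 in replicate 1 (rank 76) and 187 in replicate 2 (rank 71). Its replicate summits lay 15 and 5 bp from the pooled summit, which was 441 bp upstream of the start. Both replicates thus placed it among their 100 strongest regions of 30000. By its strongest start-window region, cct-8 stood above 99.7% of the other coding genes in each replicate and 99.9% in the pooled list.

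Next came cct-1 (WBGene00000377; chromosome II, 8185443 to 8187601, plus strand), the gene of the alpha subunit. Its peak at 8185094 to 8185328 had a pooled signal of 331 (rank 81), with 112 in replicate 1 (rank 142) and 150.4 in replicate 2 (rank 113). The summit lay 244 bp upstream of the start, and those of the replicates were 1 and 14 bp away from it. In both replicates cct-1 had a lower signal than cct-8, and it stood above 99.5% of coding genes in each. The authors' −log10 q column gave another order within the thresholded peaks, with 2.19 for cct-8, 2.09 for cct-7, 1.95 for cct-2 and 1.73 for cct-1. When the pooled list was ranked by that column, the cct-1 region was no longer among the first 2053. In each replicate list, however, cct-1 had the highest value of that column, tied with cct-8, 2.53 in replicate 1 and 2.16 in replicate 2. In replicate 2 the strongest cct-7 region had this highest value too.

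The peaks of cct-2 and cct-7, which encode the beta and eta subunits, were weaker and less alike between replicates. At cct-2 (WBGene00000378; chromosome II, 8927741 to 8929815, plus strand) the region at 8927326 to 8927641 had a pooled signal of 108 (rank 843), with 31.0 in replicate 1 (rank 1160) and 17.9 in replicate 2 (rank 4501). Replicate 2 alone would therefore not have placed cct-2 among 2053 regions. Its pooled summit was 257 bp upstream of the start, while both replicates had theirs at the same base, 316 bp upstream.

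The cct-7 gene (WBGene00020391; chromosome V, 1872246 to 1875505, plus strand) had adjoining regions that the replicates ranked differently. The thresholded peak, at 1871864 to 1871942 with its summit 339 bp upstream, had a pooled signal of 85.5 (rank 1169) and a match within 100 bp in replicate 2 only, with a signal of 65.8 and rank 639. Only 79 bp wide, it was among the 45 narrowest of the 2053 thresholded peaks (2.19%), whose median width was 316 bp. The adjoining region at 1871948 to 1872263, with its summit 140 bp upstream, had a pooled signal of 53.2 (rank 2271), just below the threshold. That region was matched in both replicates, with 24.4 in replicate 1 (rank 1645) and 15.3 in replicate 2 (rank 5682). The strongest cct-7 region of replicate 1 was thus not the thresholded one.

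Below the threshold, cct-5, cct-4 and cct-6 followed in that order in the pooled list. The strongest region of cct-5 (epsilon subunit; WBGene00000380; chromosome III, 4499188 to 4508114, minus strand) was at 4508410 to 4508725, 454 bp upstream, with a pooled signal of 44.6 (rank 2890), 6.17 in replicate 1 (rank 13373) and 29.1 in replicate 2 (rank 2159). The replicate summits lay 15 and 3 bp from the pooled one, but their ranks were far apart. Replicate 1 had a stronger region farther out, 928 bp upstream, at 8.13 (rank 9266).

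At cct-4 (delta subunit; WBGene00000379; chromosome II, 8283667 to 8285711, plus strand) the region at 8283286 to 8283601 had a pooled signal of 25.9 (rank 6633), with 12.5 in replicate 1 (rank 4711) and 8.75 in replicate 2 (rank 13211). Its summit lay 223 bp upstream, with a replicate summit 18 bp away in replicate 1 and 14 bp away in replicate 2. The weakest region was that of cct-6 (zeta subunit; WBGene00000381; chromosome III, 5853530 to 5855687, minus strand), at 5855769 to 5856084 and 240 bp upstream, with a pooled signal of 19.9 (rank 10138). It was matched in replicate 1 at 11.4 (rank 5453) but in replicate 2 no summit lay within 100 bp, and the strongest there, 477 bp upstream, had 9.34 (rank 12025). That replicate 2 summit lay past the start of the neighbouring gene alh-9, which is on the other strand after a gap of 330 bp.

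Over the 8 genes, the strongest pooled region was matched within 100 bp in both replicates at 5, namely cct-1, cct-2, cct-4, cct-5 and cct-8, against 12.4% of all coding genes. When a match had to be among the 2053 strongest regions of each replicate, 2 remained, cct-1 and cct-8, against 3.8% of coding genes. The order of the first 2 genes, cct-8 above cct-1, was the same in both replicates, while the order of cct-2 and cct-7 and that of cct-4, cct-5 and cct-6 differed between them. With 2 replicates, the spread behind these orders is poorly known.

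**Figure D2:**
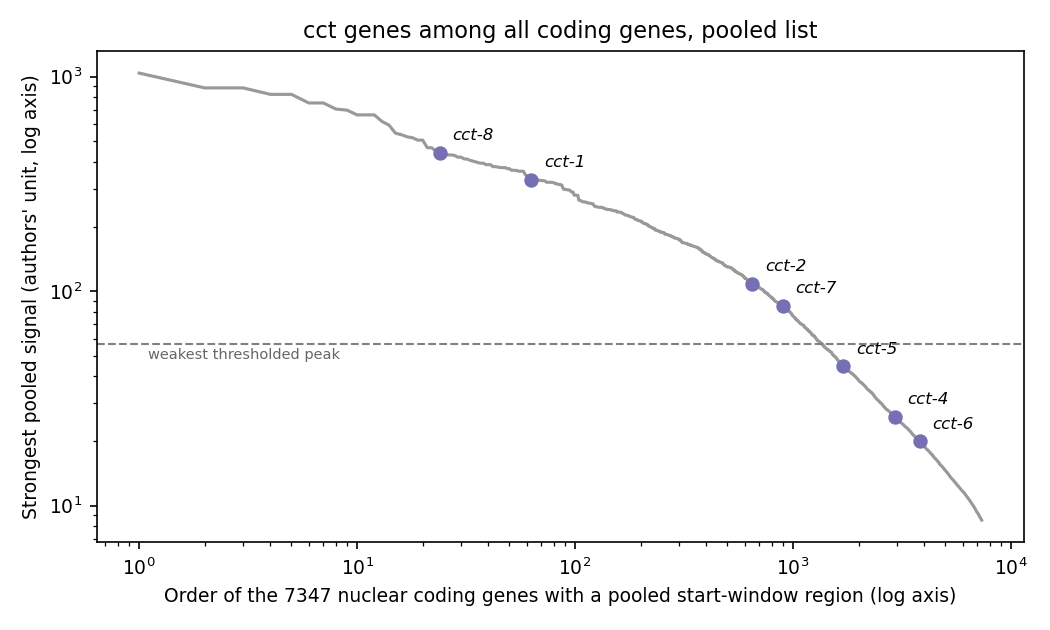
Strongest pooled signal in the start window (log axis) against the order of the 7347 nuclear coding genes that had such a region (log axis), with the cct genes as points and the weakest thresholded peak as a dashed line. The cct genes span the curve from 443 at cct-8 to 19.9 at cct-6, with 4 above the line and 3 below it.

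Set against all 19973 coding genes, where a gene with no region counts as lowest, the members stood above 99.9% (cct-8), 99.7% (cct-1), 96.7% (cct-2), 95.5% (cct-7), 91.5% (cct-5), 85.3% (cct-4), 80.8% (cct-6) and 0% (cct-3) of the others in the pooled list. Their median was 93.5% in that list, 92.0% in replicate 1 and 90.5% in replicate 2. The median of all coding genes was 0%, because most had no region. The largest differences between replicates were at cct-4, with 89.1% in replicate 1 and 77.7% in replicate 2, and at cct-5, with 82.9% in replicate 1 and 92.7% in replicate 2. For cct-5 the values came from different regions, in replicate 1 the one 928 bp upstream and in replicate 2 the one 457 bp upstream.

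Several genes had a pooled signal directly above or below that of a thresholded cct gene. Beside cct-8 were F59C6.18 (449), and ska-3 and rps-12, which share a peak of 432, rps-12 encoding a small subunit ribosomal protein. The peak next above cct-1 was that of mrpl-23, a mitochondrial ribosomal protein gene (335), and the next below was shared by dnj-13, a DnaJ cochaperone gene, and F54D5.9 (331). Around cct-2 were ubl-1 (109), and F25B4.4 and hmgs-1, the gene of HMG-CoA synthase (108 for both). Around cct-7 were lir-3 and sfxn-1.2 (85.6) and the pair K07C5.3 and K07C5.13 (85.4). This likeness is in pooled rank alone, over 1 list. Some of these summits lay far from the named start, 942 bp at mrpl-23 and 793 bp at F59C6.18.

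The gene of the gamma subunit, cct-3 (WBGene00018782; chromosome II, 2233540 to 2243539, plus strand), lay in a long stretch without any region. Across the thresholded, pooled and replicate lists no region was listed from position 2152984 to 2275409, a stretch of 122426 bp that holds the starts of 19 coding genes. On chromosome II 7 of 6320 such gaps between regions were at least this long, and the median gap was 596 bp. Genome-wide, 43 region-free stretches of at least 100 kb held 1107 coding starts (5.54%). Whether reads in this stretch were left out before regions were called was not tested, and the absence does not show that the cct-3 start was unbound. Among the 7 cct genes outside such stretches, 4 had a thresholded summit, against 7.16% of coding genes outside them, a comparison added after seeing the data.

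All 7 genes with a region shared it with another coding gene, which lay head to head on the opposite strand. At cct-2 the gap to that gene was 1189 bp, so cct-2 is not in the count within 1000 bp given below. How often the regions of all coding genes were shared in this way was not counted. The cct-8 summit was 441 bp upstream of cct-8 and 180 bp upstream of Y55F3AR.2, which RefSeq describes as a thioredoxin-domain gene. At cct-1 the neighbour was mig-5, a Dishevelled gene of Wnt signalling, and the summit was 244 bp from the cct-1 start and 176 bp from that of mig-5. The cct-7 summit was 339 bp upstream of cct-7, 100 bp upstream of T10B5.4, an N-acetyltransferase-domain gene in RefSeq, and also 73 bp upstream of the noncoding RNA gene T10B5.13. Of the thresholded peaks, that of cct-2 alone was closer to the cct start, at 257 bp, with B0457.2 at 933 bp.

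Counting each thresholded peak only for its nearest coding start left 1 of the 8 cct genes, cct-2, against 4.93% of all coding genes. The files do not say to which gene of a shared region the binding belongs. Among the weaker regions the summit of cct-4 was 223 bp from its start and 236 bp from that of nst-1, the nucleostemin gene. The cct-5 summit was 454 bp from its start and 287 bp from that of F25F2.1, a protein kinase-domain gene in RefSeq. The cct-6 summit was 240 bp from its start and 91 bp from that of alh-9, an aldehyde dehydrogenase gene. An opposite-strand coding start lay within 1000 bp upstream of 6 of the 8 cct genes (75%), against 17.7% of all coding genes. Among the 1352 coding genes with a thresholded summit this share was 41.8%. Of the 6 head-to-head cct genes 3 had a thresholded summit, against 16.0% of all 3539 head-to-head coding genes, a share that was 4.79% in the other 16434 coding genes.

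**Figure D3:**
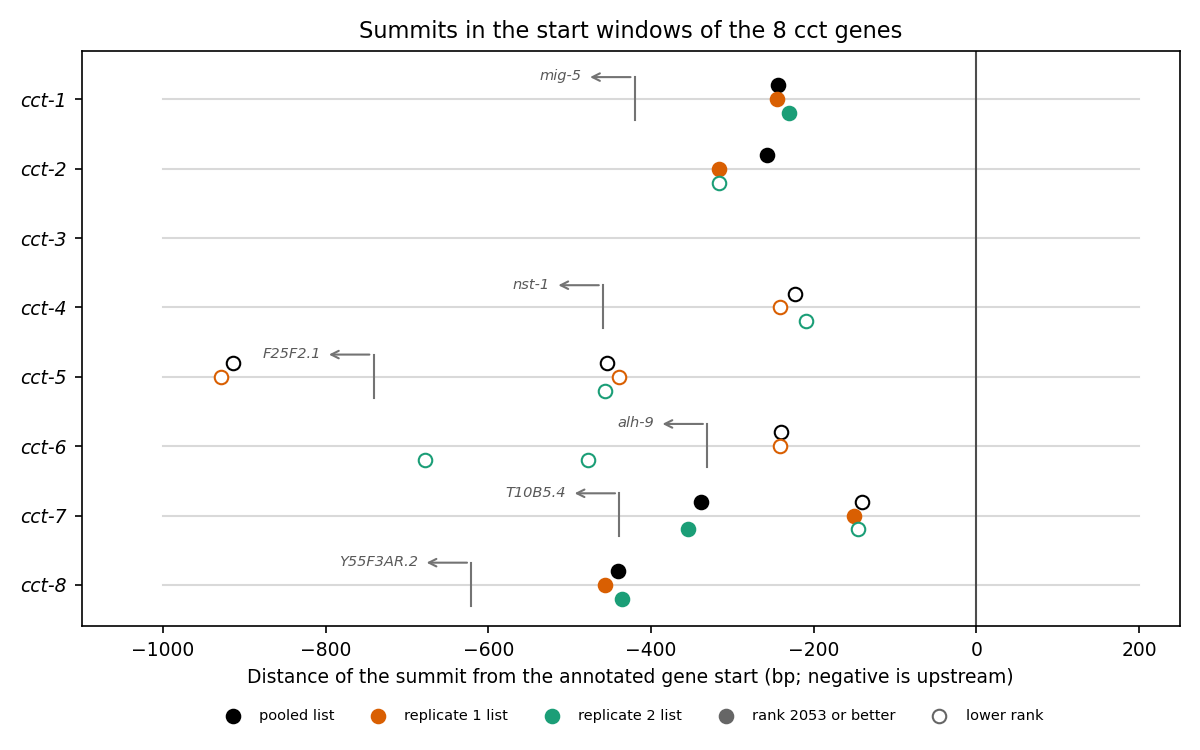
Summits in the start window of each cct gene by distance from the annotated start in bp, in the pooled list (black), replicate 1 (orange) and replicate 2 (green), filled where the region ranks 2053 or better in its list and open where it ranks lower. Grey arrows mark starts of coding genes on the opposite strand within 1000 bp; every summit lies upstream, and at cct-1, cct-4, cct-7 and cct-8 all of them lie between the paired starts.

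The strongest pooled summits of the 7 genes lay between 223 bp upstream at cct-4 and 454 bp upstream at cct-5. For the 1352 coding genes with a thresholded summit the median position was 248 bp upstream of the start, with quartiles at 137 and 429 bp. The summits of cct-1, cct-2, cct-4 and cct-6 lay at similar distances, from 223 to 257 bp. At cct-8 and cct-5 they were farther out, at 441 and 454 bp, beyond the upper quartile. Many C. elegans transcripts are trans-spliced, so that an annotated start need not be where a transcript is begun, and the distances hold for the annotation only.

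The windows printed above shared short runs of letters in different pairings. GGTCTC was present at cct-1, cct-4 and cct-6, that is in 3 of 7 windows, against 9.10% of the 2034 nuclear thresholded summit windows and 2.56% of flanks centred 300 bp away. GACGCG was present at cct-2, cct-5 and cct-8, also in 3 of 7, against 6.54% of thresholded windows and 1.67% of flanks. At the 866 thresholded start-window peaks of other autosomal coding genes the shares were higher, 12.6% for GGTCTC and 7.85% for GACGCG. The windows of cct-4, cct-5 and cct-6 were not at thresholded peaks. At pooled relaxed summits over 500 bp from a thresholded one the shares were 2.88% for GGTCTC and 1.22% for GACGCG. No window held both, and that of cct-7 held neither. Both were read on both strands and were picked after the letters had been seen.

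Longer runs lay around these words, and runs away from them were shared too. TTTTCTAGAA was common to cct-5 and cct-6 (10 bases, same strand). Other runs of 9 bases were common to cct-2 and cct-4 and to cct-5 and cct-7. The windows of cct-5 and cct-8 had TGACGCGCAA in common, 10 bases on the same strand. TGACGCGCAA occurred in 5 of 2034 thresholded windows (0.246%), in 0.346% of the 866 start-window peaks of other genes and in 0.197% of flanks. In pooled relaxed windows over 500 bp from a thresholded summit it occurred in 0.0946%. Within 1000 bp upstream it was found at these 2 of 8 cct genes only. The run was defined from their windows, so its presence there was fixed in advance and nothing was read from the count. TGACGCGCAA lay upstream of 1.31% of all coding genes, 0.888% of those with a thresholded summit and 1.34% of those without. The windows of cct-1 and cct-4 both held GGTCTCGNCACGA, which was defined from these 2 windows with the base that differed written as N. It was found in 15 of 2034 thresholded windows (0.737%), in 1.39% of the 866 peaks and in 0.172% of flanks. At pooled relaxed summits over 500 bp from a thresholded one the share was 0.262%. That run occurred within 1000 bp upstream of 4 of the 8 cct genes, among them cct-1 and cct-4, which defined it. Over all coding genes the share was 2.29% (458 of 19972 with a full upstream window), with 3.85% of those with a thresholded summit and 2.18% of those without. Its letters, with capitals throughout because the whole run is the match, were as follows on the strand that reads GGTCTC.
cct-1: GGTCTCGGCACGA
cct-2: GGTCTCGCCACGA
cct-3: GGTCTCGCCACGA
cct-4: GGTCTCGCCACGA

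These runs lay 231 to 243 bp upstream of cct-1, with the centre 7 bp from its pooled summit, and 237 to 249 bp upstream of cct-4, with the centre 20 bp from the summit. At cct-2 the run was on the other strand, 484 to 496 bp upstream and outside the strongest region, with the centre 233 bp from its summit. The one at cct-3, 854 to 866 bp upstream (chromosome II, 2232674 to 2232686), was in the stretch without regions. The run thus lay inside the strong peak of cct-1 and inside the weak region of cct-4. Its place at cct-3 cannot be read either way, because no region was listed anywhere in that stretch. A match is a description of letters and says nothing of which factor binds there.

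Among motifs of known regulators, TTCNNGAA, the core of the element bound by heat shock factor, occurred in the windows of cct-2, cct-5 and cct-6. The shares were 3.49% of thresholded windows, 5.90% of flanks and 6.41% of pooled relaxed windows over 500 bp from a thresholded summit. TTCNNGAA was absent from the windows of cct-1 and cct-8, where the signals were highest. The arrangement GAANNTTC occurred in 0 of 7 windows, against 3.79% of thresholded ones. Within 1000 bp upstream TTCNNGAA was found at 7 of 8 cct genes and GAANNTTC at 7 of 8, but also at 50.9% and 51.1% of all coding genes. None of the 7 windows held the GATA core GATAA (against 18.6% of thresholded windows), the E-box CACGTG (3.49%), the forkhead motif GTAAACA (1.62%) or the TATA-box letters TATAAA (5.65%). CCAAT was found in that of cct-2 alone, against 17.3%.

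The share of G and C was 56.4% at cct-8 and 53.5% at cct-1, above the median of 45.5% over thresholded windows. It was 47.5% at cct-5, 45.5% at cct-4, 43.6% at cct-7, 37.6% at cct-2 and 36.6% at cct-6. Flank windows had a median of 34.7%. Of the 25 words of 6 bases with the largest excess in share at 866 other autosomal start-window peaks over their flanks, cct-5 held 7, cct-8 4, cct-1, cct-4 and cct-6 3 each, cct-2 2 and cct-7 none, against a median of 3 in those peaks and 0 in their flanks. The thresholded cct-7 peak was thus one of those without any of these words, as were 16.3% of the other peaks. Some of the words overlap, so the numbers held are not numbers of separate sites. The 4 words of cct-8 all lay inside the longer run it shared with cct-5, and the same 4 were among the 7 of cct-5. All 3 words of cct-4 overlapped inside the longer run it shared with cct-1.

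Genes of the same folding route were examined beside the cct genes, from lists made by role. The prefoldin complex, which delivers clients to CCT, had thresholded summits at 4 of its 6 genes, at pfd-1 (187), pfd-4 (115), pfd-5 (102) and pfd-6 (65.1). The replicate signals at pfd-1 were 17.1 in replicate 1 and 119 in replicate 2, each on the scale of its own list. No pooled region was listed at pfd-2 or pfd-3. The prefoldin values, from 65.1 to 187, lay between those of cct-1 and cct-5.

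The mitochondrial chaperonin is encoded by hsp-60 and its cochaperonin gene, here annotated as Y22D7AL.10, and the pair shared a single head-to-head peak. Its pooled signal was 466 (rank 47), with 146 in replicate 1 and 273 in replicate 2, 594 bp upstream of hsp-60 and 219 bp upstream of Y22D7AL.10. In the same list cct-8 had rank 50.

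Among other cytosolic folding machines, hsp-110 (216) and hsp-1, which encodes Hsc70 (161), had thresholded summits, and hsp-90 had a relaxed region of 13.4. A thresholded summit was also present at txdc-9, a thioredoxin-domain gene whose human counterpart binds CCT (58.8). Of the client genes, 1 of 5 actin genes had a thresholded summit, act-4 at 57.3, barely above the lowest thresholded signal, while the others ranged from 24.5 to 46.5. Tubulin genes had 3 of 16, at the gamma-tubulin gene tbg-1 (168) and the alpha-tubulin genes tba-2 (132) and tba-1 (67.7). The tbg-1 summit lay 866 bp from its annotated start. No pooled region was listed at 7 tubulin genes. The share over all coding genes was 6.77%, and none of these lists was tested against it or against the cct genes.

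**Figure D4:**
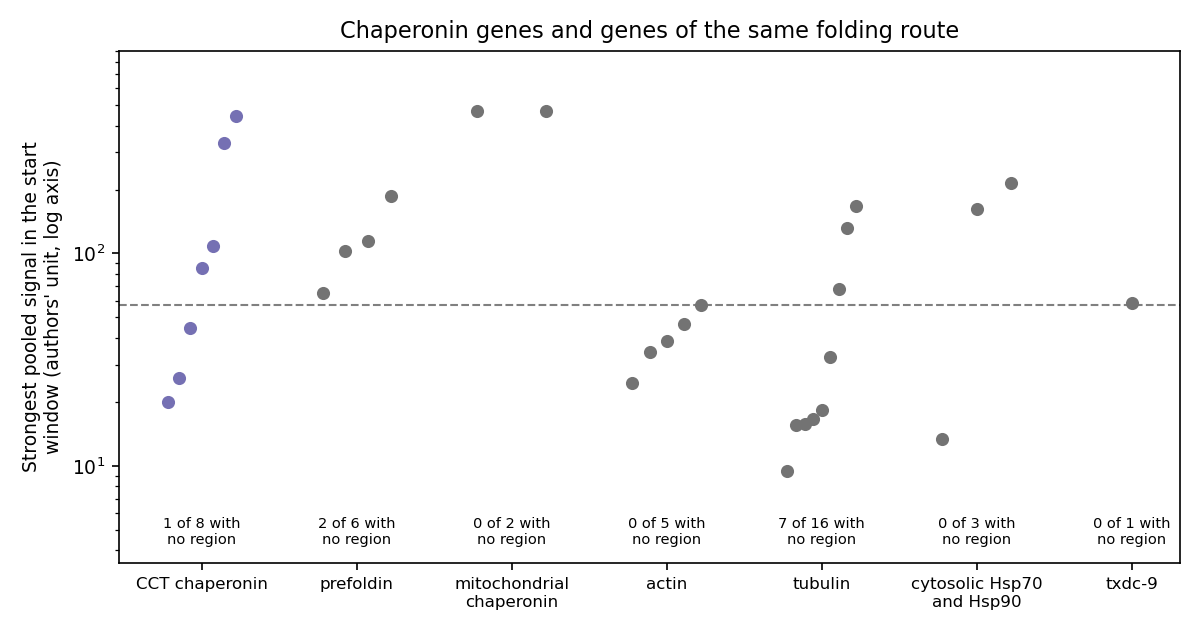
Strongest pooled signal in the start window (log axis) of each gene in the CCT chaperonin (purple) and in related lists (grey), with genes lacking a region counted at the foot and a dashed line at the weakest thresholded peak, 57.0. Points above the line number 4 of 8 for CCT, 4 of 6 for prefoldin, 2 of 2 for the mitochondrial chaperonin, 1 of 5 for actin and 3 of 16 for tubulin.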

How the data were processed

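Chromatin immunoprecipitation sequencing peaks were analysed for 2 biological replicates. Per the manifests deposited with each library, relaxed regions were called per replicate and on pooled reads, each with a control alignment, and an optimal list was thresholded from these by the irreproducible discovery rate. For the aligner, peak caller, settings and threshold, names were not given in the sources used here. Column 7 of each deposited list, its peak signal, was used with no stated scale, and the deposited −log10 q-value column served in an alternative ranking only. All 2053 thresholded peaks were the strongest pooled regions by signal. Lists on another build were not used.

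Summits were joined in Python 3.11.15 (pandas 2.3.3, numpy 2.4.6) to gene starts of Ensembl release 115 on WBcel235, whose chromosome lengths hold all ce11 regions. Coordinates are 1-based. Columns of other samples left unused numbered 0. Window assignment and ranking were tested on simulated data. The longer shared runs and GGTCTC and GACGCG were picked after the letters were seen, and the members and lists were chosen with earlier results of these data known. Named genes were all 8 members, genes sharing a region with them, list genes with a thresholded summit, and the genes next to each thresholded member in pooled signal. hsp-90, the actin range and genes without a region were named in addition.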

Additional observations from a re-analysis of the deposited data

How the results depend on the processing

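With a thresholded summit at 4 of 8 cct genes and at 6.77% of coding genes, the count was again 4 in several settings whose share over coding genes differed. These were a window of 500 bp upstream to 100 bp downstream (5.29%), one of 2000 bp upstream to 500 bp downstream (9.22%), any overlap of region and window (7.23%), starts of all transcripts (7.28%) and starts outside region-free stretches (7.16%). It was 3 for peaks of the stronger 50% (3.98%), where cct-7 was lost, and 3 for the q-value ranking (6.43%), where cct-1 was lost. Leaving out a replicate gave 3 to 4, with cct-2 lost without replicate 1 (7%) and none lost without replicate 2 (5.95%). Taking the nearest protein-coding start only gave 1 (4.93%), the one change of over 1.5 times, because the start across the shared region is closer at cct-1, cct-7 and cct-8. The count of 5 genes matched in both replicates (12.4%) was 4 with summits within 50 bp (7.85%), 6 within 200 bp (16.6%) and 2 with only the strongest regions of each replicate (3.8%).

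The nearest-start setting put the standing of cct-1, cct-5, cct-6 and cct-8 at 0. Over the other settings it ranged from 99.7% to 99.9% for cct-8, 93.2% to 99.8% for cct-1, 88.4% to 97.4% for cct-2, 93.9% to 99.0% for cct-7, 82.9% to 93.3% for cct-5, 77.7% to 89.1% for cct-4 and 76.1% to 88.0% for cct-6. No paired analysis was possible because there is a single group. Depth is unknown, so at the weak regions of cct-4, cct-5 and cct-6 little binding and few reads cannot be told apart.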

Other observations

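Inside and behind the cct genes a few further regions were listed. The 8927 bp cct-5 gene held 12 regions in the pooled list, with a highest signal of 38.1, 12 in replicate 1 and 9 in replicate 2, none of them thresholded. In each replicate the strongest region inside cct-5 exceeded the strongest in its start window. The signals were 19.9 against 8.13 in replicate 1 and 36.4 against 29.1 in replicate 2. The highest pooled signals inside cct-7, cct-4, cct-2 and cct-6 were 29.4, 21.3, 14.2 and 12.4, all below those at their starts. The cct-3 gene, 10000 bp long, held 0 in every list, and the 6813 bp cct-8 gene held 0 in the pooled list, 4 in replicate 1 and 1 in replicate 2, all with signals of at most 6.41.

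A thresholded summit lay within 500 bp past the end of 2 of the 8 genes, against 2.72% of all coding genes. Behind cct-6 it was 133 bp past the end and 128 bp upstream of ddx-23, a DEAD-box helicase gene on the same strand. That peak had a pooled signal of 105 (rank 879), with 64.6 in replicate 1 (rank 393) and 30.6 in replicate 2 (rank 2029). The start of cct-6 itself had 19.9. Behind cct-1 it was 141 bp past the end and in no gene's start window, with a pooled signal of 60.7 (rank 1863), 18.6 in replicate 1 and 18.0 in replicate 2.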
